A study of Ovis aries with 16 samples.

Results

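Compact regions with an enrichment peak in every fetus were studied in sheep fetal longissimus dorsi (LD) muscle, the long muscle of the back. Peaks of the 16 fetuses were pooled and merged wherever they shared at least 1 bp, and a merged region on chromosomes 1 to 26 was kept when it held a peak of all 16 fetuses and was at most 1000 bp wide. The regions were thus chosen by the presence of listed peaks in each fetus and by their extent. The rule left 11593 compact regions of the 678678 merged regions on these chromosomes, or 1.71%. A further 74588 regions with a peak in all 16 fetuses were wider than 1000 bp, so that compact regions made up 13.5% of the 86181 autosomal regions found in every fetus. Peak presence and merged width, and the score level that goes with them, are given as descriptions without a test. The rule did not use the diet of the ewe, and the diets are compared by test.

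In vertebrate genomes most CpG dinucleotides carry a methyl group on the cytosine, and the methyl-binding domain (MBD) of proteins such as MBD2 binds these methylated CpGs. When sheared DNA is captured with such a domain, fragments with several methylated CpGs are retained in preference to fragments with few, so that a peak reports both the methylation and the density of CpGs. Muscle fibers of the sheep fetus are formed before birth, and the diet of the ewe reaches the fetus in that period.

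The LD muscle came from 8 fetuses of hay-fed and 8 fetuses of corn-fed Polypay ewes, the diets being fed from mid-gestation until necropsy in late gestation and formulated to the same energy. Tissue, breed and assay were the same in both groups, and no untreated group or input library was analysed. Diet was given to the ewe. The study's list of pools names fewer ewes than fetuses in both groups, and all hay-fed fetuses stand there in twin pairs. Dam, sex and sequencing lane are not given for the numbered samples, so each fetus was counted as independent. The p-values measure the spread between these fetuses. They may be too small, because littermates share a ewe and her diet. Muscle markers cannot be checked in methylation peaks.

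Each fetus had between 261331 and 519923 listed peaks, 6410742 in all, and the number of reads behind them is unknown. Each peak was given a score, minus the log10 of its listed p-value. Where that value was 0 it was replaced by 1e-100, which gives a score of 100. The highest score of a fetus in a region was used, and a scaled score was obtained by dividing by a factor for each fetus (0.765 to 1.38) that equalized the fetuses over regions found in all of them. The weakest p-value listed was not the same everywhere: it lay between 0.0638 and 0.135 over the 416 combinations of fetus and chromosome, and 5.77% of all peaks sat exactly at it. No genome sequence of the assembly Oar_v3.1 was used here, so neither bases nor CpG counts are shown, and positions are given as deposited.

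The compact regions were mostly close to the width limit. Their widths ran from 253 to 1000 bp with a median of 906 bp, and 6099 of them (52.6%) were 901 to 1000 bp wide. Only 393 (3.39%) were at most 500 bp wide. Together they covered 10119136 bp, which is 0.413% of the chromosome length, whereas wide regions covered 7.46%. At the limit itself nothing changed abruptly: the 641 regions of 991 to 1000 bp had a median scaled score of 2.0 and the 577 regions of 1001 to 1010 bp had 2.02. On the side of fetus number, the 13392 compact regions with a peak in 15 of the 16 fetuses had a median scaled score of 1.69.

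A peak in every fetus did not always mean a shared base in every fetus. In 2843 compact regions (24.5%) each of the 16 fetuses had exactly 1 peak, compared with 5.54% of wide regions. The stretch covered by all 16 fetuses had a median length of 97 bp, or 11% of the region's width, and the upper quartile was 209 bp. In 3095 compact regions no base was covered by all 16 fetuses, the region being held together by peaks that overlapped in a chain, and 73.3% of compact regions had such a base against 83.7% of wide regions. Averaged over its bases, the median compact region was covered in 10.8 fetuses and the median wide region in 10.6.

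Scores in the compact regions were low for most and very high for a few. The median scaled score over the 16 fetuses had its own median at 1.94, with 90% of regions between 1.49 and 4.44, while wide regions had a median of 2.47. A median score above 3 was found in 1442 compact regions, above 5 in 455 (3.92%), above 10 in 119 (1.03%) and above 50 in 12. In 2064 compact regions (17.8%) at least 1 fetus sat at the weakest score listed for that fetus and chromosome, compared with 5.07% of wide regions. In these the call of a peak in every fetus rests on the weakest entry of a list.

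The strongest compact regions reached the ceiling of the score. In 9 regions every fetus had a p-value of 0: chr4:76542560-76543334, chr4:113795886-113796692, chr6:24335892-24336859, chr7:86615069-86615963, chr12:52316645-52317470, chr12:52693700-52694677, chr15:29009801-29010443, chr15:40228096-40229092 and chr20:49974158-49974754. Their scaled scores, with a median of 99.9 and a range from 72.3 in corn fetus 14 to 131 in hay fetus 12, differ between fetuses through the scaling factor alone. The next region, chr12:52433153-52434133, lay between the pair on chromosome 12 and had a median scaled score of 60.8, with the hay-fed group at 49.4 to 79.0 and the corn-fed group at 42.9 to 93.3. A stretch of 809 bp out of its 981 bp was covered in all 16 fetuses. The upper ends of both its ranges were set by the ceiling, being a score of 100 divided by a scaling factor.

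After these came chr17:49386104-49387000 with a median scaled score of 56.7, chr3:149660195-149660846 with 51.9, chr21:10291235-10291724 with 46.4 and chr25:6508345-6509261 with 45.6. None of the fetuses had more than 1 peak in any of these regions, and the groups overlapped in each of them. Except in chr21:10291235-10291724, the highest unscaled score of each group was again the ceiling of 100. At the other end, the 5 weakest compact regions had median scaled scores of 1.19 to 1.22. They were chr7:93835145-93835922, chr6:96951474-96952358, chr20:48653349-48654044, chr14:4712615-4713520 and chr17:3446801-3447735. In each of these 5 regions between 5 and 9 fetuses had several peaks and no base was shared by all 16.

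The spread between fetuses was moderate. The SD of log2(scaled score + 1) over the 16 fetuses had a median of 0.26 in compact regions and 0.24 in wide regions, and the median coefficient of variation of the scaled score was 27.5% and 23.5%. In the median compact region the highest fetus stood 2.66 times above the lowest after scaling, and 2.92 times before it. The rank order of the 11593 regions was only partly shared: Spearman's rho between fetuses ran from 0.22 to 0.54 over the 120 pairs of fetuses, with a median of 0.41, whereas in wide regions the median was 0.48. These are correlations across regions, which are not independent, and which share a library within each fetus. The median was 0.41 for pairs on the same diet and 0.41 for pairs on different diets.

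The least variable compact region was chr13:8225478-8226312, with an SD of 0.08 and scaled scores of 1.27 to 1.85. Regions chr9:92104747-92105720, chr14:2869749-2870719, chr1:43177526-43178345 and chr13:30328519-30329366 followed with SDs of 0.10. The most variable was chr12:17186449-17187261 with an SD of 1.09. There the hay-fed group ran from 1.51 through a median of 8.69 to 19.8 and the corn-fed group from 1.88 through 8.91 to 31.9, so that low and high fetuses occurred on both diets. The others at this end were chr1:4678557-4679279 with an SD of 1.02, chr3:122874451-122875243 with 0.93, chr1:23170495-23171228 with 0.92 and chr21:46569529-46570470 with 0.92. In all 5 the groups overlapped widely.

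Compact regions were spaced far apart along the chromosomes. The distance from the end of a region to the start of the next had a median of 129314 bp over 11567 neighbouring pairs, compared with 5815 bp between wide regions and 12240 bp between compact regions with a peak in 8 to 15 fetuses. Only 728 distances (6.29%) were under 10000 bp, against 60.5% for wide regions. The distances of compact regions were also more even, with a coefficient of variation of 1.19 against 2.59 for wide regions. For the compact regions found in 8 to 15 fetuses the coefficient was 1.18.

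**Figure D1:**
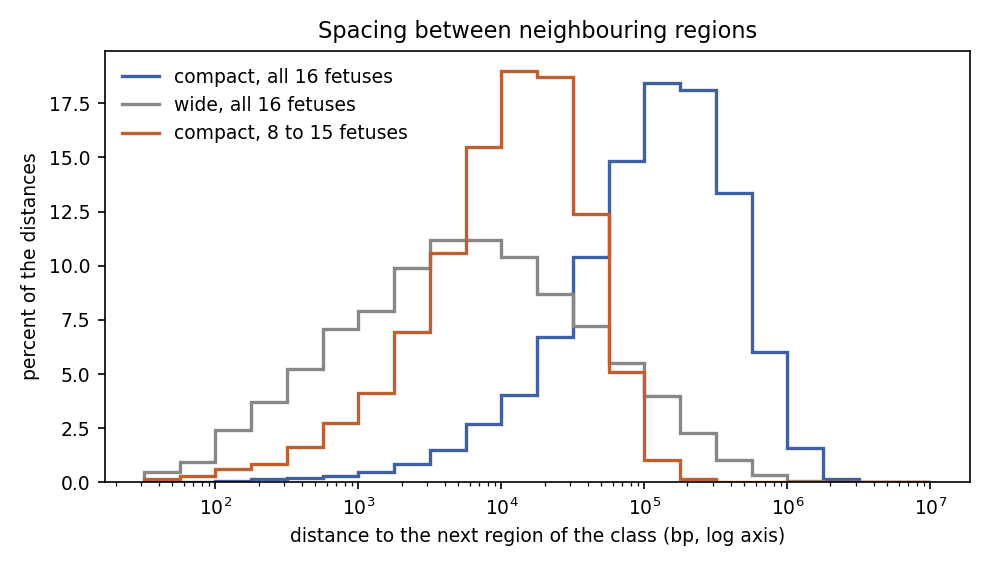
Percent of distances (vertical axis) by the distance in bp to the next region of the same class (horizontal log axis), for compact regions with a peak in all 16 fetuses, wide regions with a peak in all 16 fetuses and compact regions with a peak in 8 to 15 fetuses. The curve of the compact regions found in every fetus lies to the right, with a median of 129314 bp, and that of the wide regions is the broadest.

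Wide regions were nevertheless near. The nearest wide region lay at a median of 18123 bp from a compact region, the nearest other compact region at 63551 bp, and 71.8% of compact regions were closer to a wide region than to another compact one. Any other merged region seen in 2 or more fetuses lay at a median of 1517 bp. The shortest distance between neighbours was 73 bp, between regions of chromosome 12 that ended at 42509985 and began at 42510059. The longest was 3803485 bp on chromosome 3, from 157117439 to 160920925, a stretch that still held 388 merged regions found in at least 2 fetuses, of which 16 were wide regions found in every fetus.

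Position along the chromosome separated compact from wide regions. Of the compact regions, 22.8% lay in the first and last 10% of the chromosome length, compared with 46.0% of wide regions, 20.3% of compact regions found in 8 to 15 fetuses and 25.1% of all merged regions found in at least 2 fetuses. The last 10% alone held 31.5% of wide regions but 11.1% of compact regions. The lowest share of compact regions in any such step was 8.77% and the highest 11.7%, so that they were spread almost evenly over the chromosome arms. Chromosome length was taken as the end of the last listed peak.

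**Figure D2:**
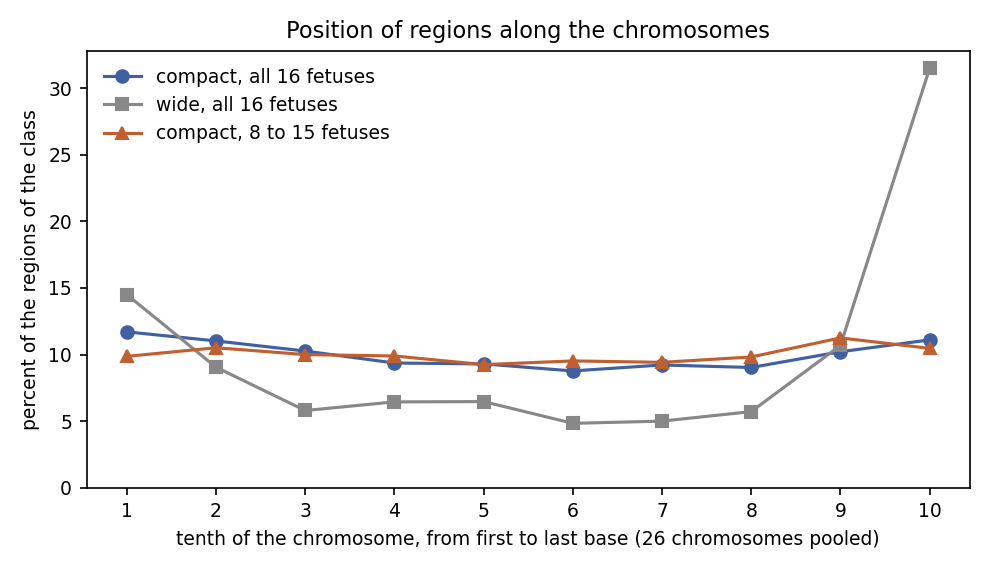
Percent of the regions of each class (vertical axis) in 10 equal steps of chromosome length (horizontal axis, 26 chromosomes pooled). Wide regions rise to 31.5% in the last step, and compact regions of both kinds stay near 10% throughout.

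Density differed between chromosomes, and chromosome 1 stood apart. It held 2481 compact regions, 9.0 per Mb, which is 21.4% of all compact regions on 11.2% of the chromosome length. Chromosome 6 followed with 5.80 per Mb and chromosome 2 with 5.57 per Mb, and the lowest densities were 2.42 per Mb on chromosome 22, 2.43 on chromosome 24 and 2.64 on chromosome 21. The median over the 26 chromosomes was 3.81 per Mb. Chromosomes rich in wide regions were poor in compact ones: Spearman's rho between both densities was -0.78 over the 26 chromosomes, which share the same 16 libraries, and the densities of compact regions and of all merged regions found in at least 2 fetuses gave -0.50. On chromosome 24 compact regions were 5.38% of the regions found in every fetus and on chromosome 1 they were 25%.

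**Figure D3:**
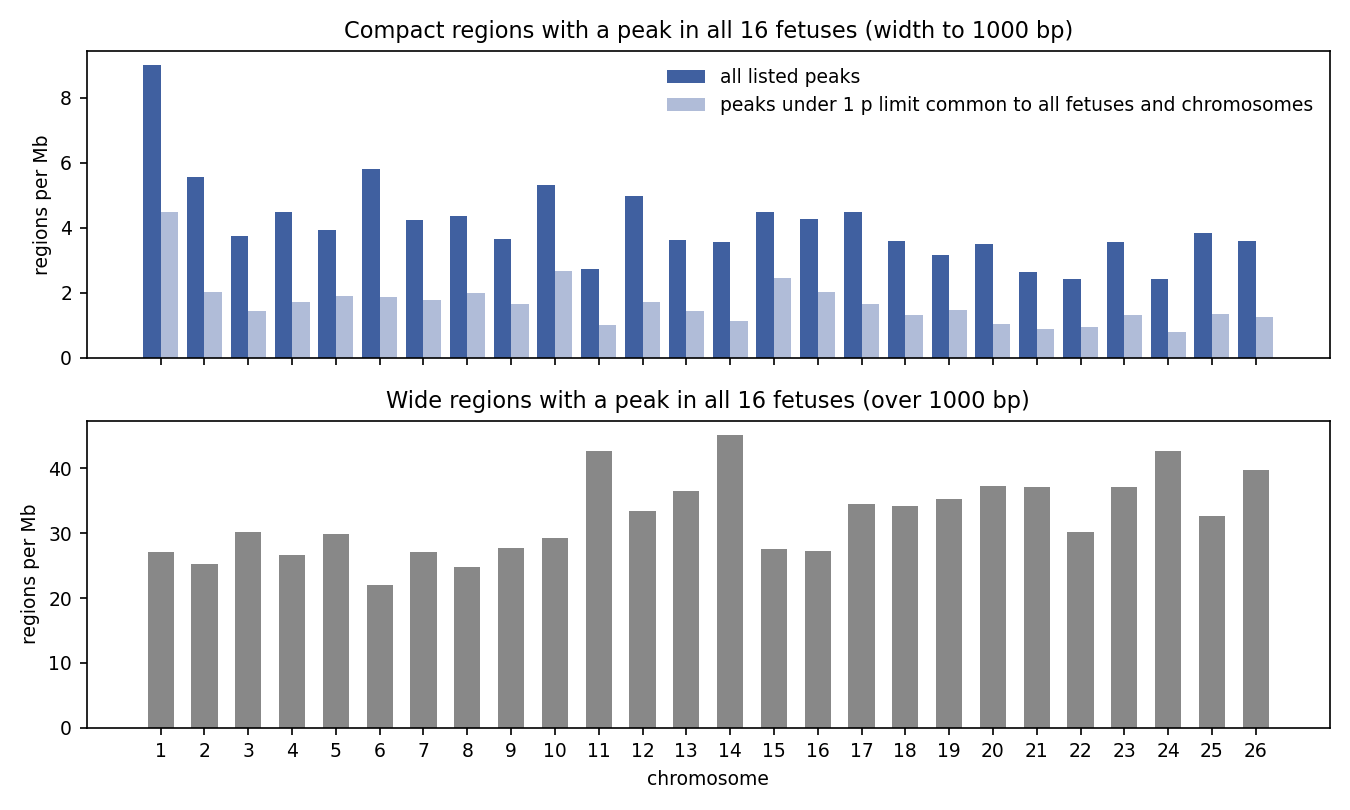
Regions per Mb (vertical axes) by chromosome (horizontal axis): compact regions with all listed peaks and with 1 p-value limit of 0.0638 for all fetuses and chromosomes (upper panel), and wide regions (lower panel). Chromosome 1 has the highest density of compact regions in both versions, 9.0 and 4.50 per Mb, but not of wide regions.

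The excess on chromosome 1 ran along its whole length. Its 27 complete windows of 10 Mb held 65 to 132 compact regions with a median of 85, whereas the 208 complete windows of the other chromosomes held 12 to 104 with a median of 40, and 1 of them reached 85. When only peaks with a p-value of at most 0.0638 entered the merge, an alternative chosen after the data were seen, 4854 compact regions were obtained, the density on chromosome 1 was 4.50 per Mb, and that of the other chromosomes lay between 0.785 and 2.66 per Mb. The order of the chromosomes changed little, with a Spearman's rho of 0.89 between both sets of densities. The median of the weakest scores listed per fetus was 0.946 on chromosome 1 and between 0.935 and 1.05 on the others, and its rho with the density was 0.05.

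Narrow regions were the most concentrated on chromosome 1. Of the 393 compact regions of at most 500 bp, 218 (55.5%) lay there, or 79.1 per 100 Mb, against 8.04 per 100 Mb on all other chromosomes combined, among which chromosome 17 had the most with 18.0. Every fetus had exactly 1 peak in each of the 393. Their median scaled score of 3.37 exceeded the 1.93 of the wider compact regions, and 203 of the 455 compact regions with a score above 5 (44.6%) were on chromosome 1. Of the 218 narrow regions, 129 (59.2%) lay in its first 100 Mb. The split by chromosome 1 was chosen after values had been seen, so no test is given for it.

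Scaled scores in the narrow regions of chromosome 1 were highest in the fetuses with the most listed peaks. Per fetus, the median scaled score over the 218 regions ran from 2.31 in hay fetus 11, which had the fewest peaks, to 5.11 in corn fetus 4. The 6 fetuses with the most peaks had medians of 4.41 to 5.11, the other 10 had 2.31 to 3.72, and the 5 fetuses with the fewest peaks had 2.31 to 3.07. In the 175 narrow regions of the other chromosomes the same groups of fetuses had 3.02 to 3.48, 2.33 to 3.04 and 2.33 to 3.02. In wide regions outside chromosome 1 all fetuses lay between 2.49 and 2.53, which the scaling brings about. Before scaling the split on chromosome 1 was not clean: the 6 fetuses with the most peaks had medians of 3.87 to 4.73 and the other 10 had 2.18 to 4.39, with hay fetus 5 at 4.39, corn fetus 6 at 4.21 and corn fetus 14 at 4.03. The part of peak number and of the scaling in these scores was not tested. The diets overlapped there, with means of 3.86 ± 0.939 (SD, n = 8) in the hay-fed and 3.61 ± 0.813 (SD, n = 8) in the corn-fed group.

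**Figure D4:**
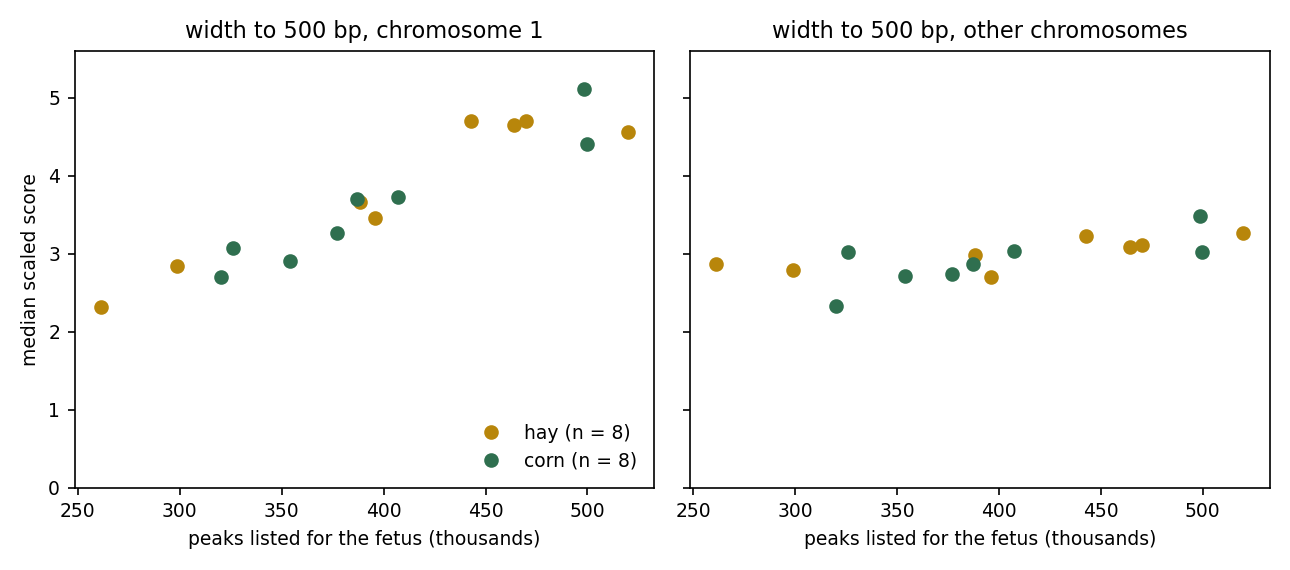
Median scaled score per fetus (vertical axes) against the number of peaks listed for the fetus (horizontal axes), for compact regions of at most 500 bp on chromosome 1 (left, 218 regions) and on the other chromosomes (right, 175 regions). On chromosome 1 the scaled medians run from 2.31 to 5.11 and the 6 fetuses with the most peaks are the highest, which does not hold before scaling, where the other 10 reach 4.39, while on the other chromosomes they run from 2.33 to 3.48.

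The densest clusters were on chromosome 1 as well. Among non-overlapping windows of 100000 bp, the fullest held 8 compact regions between 3686812 and 3742498, with 1 wide region among them and median scaled scores of 1.87 to 10.9. A cluster of 7 regions lay between 29948674 and 30032280, without any wide region, with scores of 2.38 to 7.88 and widths of 304 to 921 bp. Another 7 lay between 61465598 and 61557977, with scores of 1.69 to 5.33 and widths of 300 to 958 bp.

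The diet comparison asked whether fetuses of hay-fed and corn-fed ewes differ at regions that all of them share. Before scaling, the score per fetus, taken as its median over the compact regions, ran from 1.62 through a median of 1.80 to 2.37 in the hay-fed group and from 1.63 through 2.18 to 2.73 in the corn-fed group. The groups overlapped, with corn fetus 4 the lowest of its group and hay fetus 5 the highest of its own. The means were 1.87 ± 0.241 (SD, n = 8) and 2.18 ± 0.334 (SD, n = 8), a difference of -0.309 (exact permutation test, two-sided, p = 0.0530, adjusted p = 0.132 over 5 tests). After scaling, an alternative added once the data had been seen, the means were 2.01 ± 0.105 and 1.99 ± 0.0645 (SD, n = 8 each) and the difference turned to 0.0195 (exact permutation test, adjusted p = 0.738). The scaling equalizes the fetuses over regions that include the compact ones, so the scaled comparison cannot show a difference common to these regions.

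Peaks inside the compact regions had a lower mean width in the hay-fed group. Their median width per fetus ran from 288 through 446 to 683 bp in the hay-fed group and from 300 through 638 to 705 bp in the corn-fed group. Corn fetus 4 at 300 bp was the only fetus of the corn-fed group under 556 bp, and hay fetuses 5 and 8 were the only ones of the hay-fed group above 459 bp. The means were 454 ± 124 bp (SD, n = 8) and 603 ± 131 bp (SD, n = 8), a difference of -149 bp (exact permutation test, two-sided, p = 0.0385), which did not pass after adjustment over the 5 tests (adjusted p = 0.132). Without corn fetus 4 both comparisons passed the threshold of 0.1, with adjusted p = 0.0280 for the score and 0.0179 for the width by the same exact permutation test, and without hay fetus 5 both had adjusted p = 0.0354. Over all alternatives the adjusted p of the exact permutation test ran from 0.0280 to 0.738 for the score and from 0.0179 to 0.480 for the width.

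**Figure D5:**
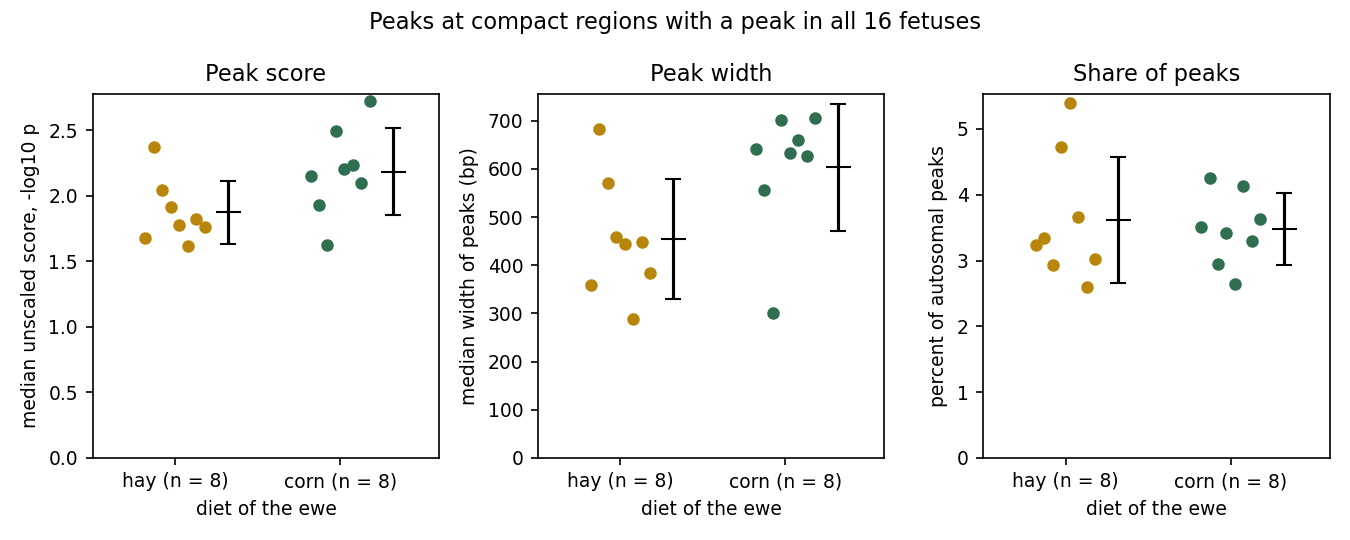
Median unscaled score at compact regions (left), median width in bp of the peaks in them (middle) and percent of a fetus's autosomal peaks that lay in them (right), by diet of the ewe, with 1 point per fetus and the mean ± SD (n = 8) beside the points. The hay-fed group has a mean score of 1.87 against 2.18 and a mean width of 454 against 603 bp, and the groups overlap in all panels.

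The widths of all peaks also had a lower mean in the hay-fed group, with medians per fetus of 283 ± 37.1 bp against 351 ± 89.3 bp (SD, n = 8 each, exact permutation test, p = 0.0710). The log2 ratio of the median width at compact regions over that of all peaks was 0.65 ± 0.27 and 0.78 ± 0.31 (SD, n = 8 each, exact permutation test, p = 0.371).

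The mean unscaled score of the hay-fed group was also lower outside the compact regions, without passing a test. The median score at wide regions was 2.36 ± 0.403 (SD, n = 8) in the hay-fed and 2.76 ± 0.459 (SD, n = 8) in the corn-fed group (exact permutation test, p = 0.0856), and that of all peaks 1.45 ± 0.0828 and 1.54 ± 0.113 (SD, n = 8 each, exact permutation test, p = 0.0842). The log2 ratio of the score at compact over that at wide regions, which compares the diet difference between both classes, was -0.33 ± 0.07 (SD, n = 8) and -0.34 ± 0.04 (SD, n = 8), a difference of 0.011 (exact permutation test, p = 0.722, adjusted p = 0.738). Compact regions held 3.62% ± 0.962 (SD, n = 8) of the autosomal peaks in the hay-fed group and 3.48% ± 0.544 (SD, n = 8) in the corn-fed group. Since the rule gives every fetus a peak in each region, this share follows mainly from the number of all peaks of a fetus and is given as a description. The typical distance of a fetus from the median profile of all fetuses, on the log2(scaled score + 1) scale, was 0.18 ± 0.01 and 0.17 ± 0.01 (SD, n = 8 each, exact permutation test, p = 0.694). A fetus had several peaks in 16.1% ± 3.06 of compact regions in the hay-fed and 12.4% ± 4.76 in the corn-fed group (SD, n = 8 each, exact permutation test, p = 0.0825).

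No compact region passed the diet test across the genome. In limma on log2(scaled score + 1), fitted over 512238 merged regions seen in 2 or more fetuses, 3 regions (0.000586%) had a Benjamini-Hochberg adjusted p under 0.1, of which 1 (0.000195%) was higher in the hay-fed and 2 (0.00039%) in the corn-fed group. Of the 11593 compact regions, 0 passed in limma in either direction. At an unadjusted p under 0.05 limma called 359 compact regions (3.1%), beside 3.16% of all regions tested. In this fit the share among compact regions was thus near the background. Of the 359, 198 were higher in the hay-fed group, or 1.71% of compact regions beside 1.43% of all regions. The other 161 were higher in the corn-fed group, or 1.39% beside 1.73%. The difference of hay minus corn had a median of 0.02 over compact regions, with 90% of them between -0.21 and 0.24 and a median SE of 0.17, and 55.7% of them were higher in the hay-fed group beside 53.9% of all regions. This direction rests on the scaling. Without scaling the median over compact regions was -0.13, and 16.7% of them were higher in the hay-fed group. In that fit 3 of the 11593 compact regions passed, beside 46 of all 512238 regions. When the scores of all peaks in a region were summed, 47.1% were higher in the hay-fed group. The share of compact regions at an unadjusted p under 0.05 in limma also changed with the fit. It was 7.18% beside 5.68% of all regions without scaling, and 1.02% beside 3.59% with summed scores. With only regions found in all fetuses it was 6.06% beside 4.56%. With the number of peaks as a covariate it was 4.69% beside 4.99%.

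The compact region with the smallest p was higher in the corn-fed group. Region chr6:82089417-82090289 is 873 bp wide, and 668 bp of it were covered in all 16 fetuses. Its scaled scores ran from 3.53 through 4.23 to 5.70 in the hay-fed group and from 4.70 through 7.21 to 8.30 in the corn-fed group, so that the groups overlapped only through corn fetus 6, the lowest of its group. The mean log2(scaled score + 1) was 2.46 ± 0.21 (SD, n = 8) and 2.98 ± 0.22 (SD, n = 8), a difference of -0.52 with an SE of 0.10 (limma, unadjusted p = 2.45e-06, adjusted p = 0.209). All 8 fetuses of the corn-fed group were above the hay-fed median. Under alternatives the limma adjusted p ran from 0.00267 to 0.990 and passed in 8 of the 23.

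A similar pattern was present in chr1:29433971-29434785. Its scaled scores ran from 5.20 through 7.49 to 8.64 in the hay-fed group and from 7.07 through 10.7 to 12.7 in the corn-fed group, where corn fetus 4 was the only one not above every hay-fed fetus. The difference was -0.47 with an SE of 0.10 (limma, adjusted p = 0.408). Under alternatives its limma adjusted p ran from 0.00245 to 1.0, and it passed in 5 of the 23, among them the fit without corn fetus 4, where it was 0.00876. Regions chr17:25192323-25193110, chr5:47638947-47639906 and chr1:14101961-14102853 followed, with differences of -0.53, -0.52 and -0.49 and a limma adjusted p of 0.919 each. Of these only chr5:47638947-47639906 passed under an alternative, without hay fetus 11 (difference -0.65, limma adjusted p = 0.0950, range over alternatives 0.0950 to 1.0).

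In the other direction, chr12:30240293-30241054 had scaled scores of 3.04 to 9.66 with a median of 6.09 in the hay-fed group and of 1.82 to 7.82 with a median of 3.57 in the corn-fed group. The difference was 0.59 with an SE of 0.14 (limma, unadjusted p = 0.000104, adjusted p = 0.919). Under alternatives its limma adjusted p ran from 0.0166 to 1.0, and it passed in 2, without corn fetus 4 (0.0166) and without hay fetus 12 (0.0751). The groups overlapped, with corn fetuses 4, 6 and 7 above hay fetuses 12, 15 and 16. The next regions, chr2:181922026-181922375, chr1:61509744-61510629, chr1:56894754-56895644 and chr1:59825632-59826593, had differences of 0.40 to 0.45 and a limma adjusted p of 0.919 each. Of these only chr1:59825632-59826593 passed under an alternative, without hay fetus 11 (difference 0.59, limma adjusted p = 0.0393, range over alternatives 0.0393 to 1.0). The chr1:61509744-61510629 region belongs to the third of the dense clusters described for chromosome 1, and it was above the corn-fed median in all 8 fetuses of the hay-fed group.

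On scaled scores the groups did not overlap at all in 3 compact regions. In 2 of them (0.0173% of compact regions) every fetus of the hay-fed group was above every fetus of the corn-fed group, beside 0.00273% of all regions. In 1 (0.00863%) the order was the opposite, beside 0.00332%. The same shares were 0.00536% and 0.00804% in wide regions. All regions include those with fetuses lacking a peak on both diets, where the groups cannot separate, so their shares are not a like comparison. Region chr2:69661186-69662041 had scaled scores of 2.02 to 3.26 in the hay-fed and 1.32 to 1.92 in the corn-fed group, chr26:39801687-39802678 had 1.62 to 2.61 and 1.22 to 1.59, and chr13:4155306-4156248 had 1.03 to 1.77 and 1.776 to 2.51. The separation in the last was thus narrow, and in none of the 3 did it hold before scaling. There the hay-fed and corn-fed groups ran from 1.72 to 3.90 and 1.36 to 2.19, from 1.53 to 2.27 and 1.01 to 2.12, and from 0.983 to 2.16 and 1.57 to 3.48. On unscaled scores 2 other compact regions (0.0173%) had every corn-fed fetus above every hay-fed one, beside 0.0113% of all regions. The opposite order was found in 0 compact regions, beside 0.000195% of all regions. The limma adjusted p was 0.919 in each of the 3.

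Single chromosomes showed no diet difference that passed on scaled scores. The mean log2(scaled score + 1) over the compact regions of a chromosome was compared by the exact permutation test, and 0 of 26 chromosomes had an unadjusted p under 0.05. The smallest p was 0.0637, on chromosome 19 (adjusted p = 0.916 over 26 tests). The differences of hay minus corn lay between -0.02 and 0.04, and 21 of the 26 were above 0. The scaling factors were set over regions that include the compact ones. A diet difference shared by all chromosomes is thus largely removed before this test, which cannot decide on it. Without scaling 25 of the 26 chromosomes passed 0.1, and chromosome 1 had a difference of -0.12 (exact permutation test, adjusted p = 0.0994). The same fetuses enter the test of every chromosome, so these 25 are not independent. The unscaled differences were alike, from -0.175 on chromosome 23 to -0.108 on chromosome 11. Over the 19 alternatives the smallest adjusted p ran from 0.0927 to 0.979.

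Of the 30 genes whose positions the study lists beside its differentially methylated regions, 13 held compact regions, 27 in all. Of the 30, 2 lie on chromosome X, which the rule leaves out, so 28 could hold one. Because the study chose these genes on the same fetuses, their compact regions are no independent evidence on diet. SLC9A9, which codes for a sodium and proton exchanger of endosomes, held 7 over 655 kb of chromosome 1, with median scaled scores of 1.45 to 3.70. ADAMTSL1, which codes for a secreted protein of the extracellular matrix, held 4 with scores of 1.73 to 2.26. NBEA (neurobeachin, a protein of membrane traffic), PLCB4 (a phospholipase C of receptor signaling), FRMD3 (a FERM domain protein), TBC1D19 (a TBC domain protein) and AASS (an enzyme of lysine breakdown) held 2 each.

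LPAR3, a receptor for lysophosphatidic acid, held 1 compact region, chr1:61228527-61229366. Its scaled scores ran from 2.45 through 3.86 to 5.41 in the hay-fed group and from 2.08 through 3.53 to 4.88 in the corn-fed group, so the groups overlapped over most of their range. The difference was 0.07 with an SE of 0.13 (limma, adjusted p = 1.0). This compact region does not overlap the region of LPAR3 that the study reports as differentially methylated, so the values cannot be set against the study's result there. ADAMTS12 (a secreted metalloproteinase), PCOLCE2 (an enhancer of procollagen processing), RAPGEF5 (an exchange factor for Rap proteins), TBC1D5 (a TBC domain protein of endosomal sorting) and the gene ENSOARG00000026696 held 1 each. PLIN4 and PLIN5, which code for proteins of the lipid droplet surface, held none, nor did MEGF11, at 311 kb the longest listed gene without a compact region, although it held 19 wide ones. Over the 27 regions the differences of hay minus corn lay between -0.21 and 0.25, and the smallest limma adjusted p was 0.919.

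Of the 60 differentially methylated regions that the study lists, 1 overlapped a compact region. This was chr1:58931007-58931935, with scaled scores of 1.54 through 3.6 to 6.09 in the hay-fed group and 1.26 through 1.98 to 4.31 in the corn-fed group. The difference was 0.39 with an SE of 0.16 (limma, unadjusted p = 0.0174, adjusted p = 0.919), and the groups overlapped. Because the study chose this region on the same fetuses, the values are no independent evidence on diet. The study used edgeR on aligned reads, whereas these are scores of listed peaks, so its test is not repeated here.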

How the data were processed

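Fetal LD DNA was enriched with an MBD protein and sequenced. Reads had been trimmed (Trimmomatic 0.33), mapped to assembly Oar_v3.1 (BWA 0.7.15) and freed of duplicates (Picard 1.107), and ChIPseeqer was then run on each fetus. The lists of peaks deposited by the authors have a value column that was read as a p-value because it lies between 0 and 0.135. Peak threshold, input control and read depth are not given in the sources used here, so no counting interval was computed. Starts may count from 0.

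Peaks were merged and scores formed as described above, in Python 3.11.15 (pandas 2.3.3, scipy 1.17.1, numpy 2.4.6). The test across regions was limma 3.58.1 under R 4.3.3 (lmFit, eBayes with trend, pseudocount 1), adjusted over all regions. Values per fetus were compared by two-sided exact permutation over all 12870 assignments, whose smallest p is 0.000155. The fit was checked on 20000 regions whose real scores were shuffled among the fetuses, with known shifts added to the hay-fed columns of some. On the log2(scaled score + 1) scale, 8% of 200 shifts of 0.25 were recovered at an adjusted p under 0.1 in limma. For shifts of 0.5 and 1 it was 74.5% and 100%. Differences near 0.25 were thus mostly missed in this check. The shifted regions were drawn from all regions with a peak in every fetus, which are mostly wide, and adjustment ran over the 20000. Of the regions called, 8.75% had no shift. Recovery at compact regions in the fit over 512238 regions was not checked. In that fit the median SE was 0.17 at compact and 0.15 at wide regions. No 2 fetuses shared more than 0.431% of peak starts. Regions were named by rank (highest and lowest median score, smallest and largest SD, smallest p in each direction), by density and distance, and by overlap with genes or regions whose positions the study lists, and those whose groups did not overlap were chosen after their values were seen. The members and lists were chosen with earlier results of these data known. Alternatives covered width, number of fetuses, peak filter, overlap, scaling, pseudocount, covariate and left-out fetuses.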

Additional observations from a re-analysis of the deposited data

Results flagged for a closer look

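A value was marked where the highest or lowest fetus of a group of 8 stood apart from the nearest of the others by more than Dixon's 95% critical value, as a share of the group's range. Chance alone marks about 1 in 20 groups. The rule was run on 20 groups of values per fetus. It was also run on each diet group at regions named by smallest p or by overlap with the study's list. The 7 marks come from both kinds of groups, so they are not a share of the 20. They are not independent, because 4 of the 7 concern corn fetus 4. In the corn-fed group, this fetus had the smallest median peak width at the compact regions, 300 bp, was the fetus without a peak in 1806 of the compact regions found in 15 fetuses, was the highest of all fetuses in 9.20% of the compact regions, and had the lowest score of its group at chr1:29433971-29434785, 7.07. It had 498464 listed peaks, more than all but 2 of the other fetuses, and the second lowest scaling factor, 0.781.

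Hay fetus 11 lay farthest from the median profile in its group, at 0.20 on the log2(scaled score + 1) scale, and had the fewest listed peaks, 261331. It was also the highest of its group at chr5:47638947-47639906, with a scaled score of 4.67, while the other fetuses of that group stood lower. Corn fetus 7 was the lowest of its group at chr2:181922026-181922375, with a scaled score of 2.67.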

How the results depend on the processing

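The number of compact regions depends on the rule: it was 24985 with a peak in at least 15 fetuses, 393 with widths up to 500 bp, 53915 with widths up to 2000 bp, 5034 with peaks above the 25th percentile of score, 4854 with the common p limit (chosen after the data were seen), and 11983 to 14270 when 1 fetus was left out. With a required overlap of 50 bp it was 11752. By limma, 0 compact regions passed at an adjusted p under 0.1; 3 did without scaling, 2 with a pseudocount of 5, 6 with the number of peaks as a covariate, and 0 to 9 when 1 fetus was left out, with 9 without hay fetus 11, 4 without corn fetus 4, 2 without hay fetus 12, and 1 each without hay fetus 5 and corn fetus 6. Over all regions limma called 3, and 46, 11 and 43 under the same 3 settings, 0 each with a pseudocount of 0.1, summed scores, regions found in all fetuses and the common p limit, and 1 to 53 when 1 fetus was left out. Of the 512238 regions, limma called 53 without hay fetus 11, 39 without corn fetus 4 and 12 without hay fetus 12. It called 7 without hay fetus 5 and 6 without corn fetus 6. Chromosomes passing numbered 25 without scaling. Leaving out 1 fetus moved the difference of hay minus corn in score from -0.389 to -0.232 and in peak width from -192 to -125 bp. The share of peaks ran from -0.119 to 0.281 percentage points (-0.022 without hay fetus 10, -0.119 without hay fetus 11), the distance from the median profile from -0.0017 (without hay fetus 11) to 0.0060, and the log2 ratio of compact to wide scores from -0.00054 (without hay fetus 12) to 0.027. The cause was not tested. No paired analysis was made, because each ewe received a single diet and dams are not given for the numbered samples. The difference in peak width kept its direction under every alternative run, and that in score under all but the scaled scores, an alternative added after the data were seen, where it was 0.0195. Absence of a peak and low depth cannot be told apart in peak lists.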

Other observations

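Among the 13392 compact regions with a peak in 15 of the 16 fetuses, the fetus without a peak was from the hay-fed group in 9362 (69.9%) and from the corn-fed group in 4030. It was hay fetus 12 in 2464, hay fetus 11 in 2059 and corn fetus 4 in 1806, while corn fetus 6 was missing in 120. Hay fetus 12 and corn fetus 4 had the lowest scaling factors, 0.765 and 0.781, and hay fetus 11 had the fewest peaks. The part of these in the counts was not tested.

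Fetuses also differed in how often they gave the highest or lowest scaled score of a compact region. Corn fetus 9 was the lowest of the 16 in 1299 regions (11.2%), hay fetus 11 in 1205 and hay fetus 5 in 1199, while hay fetus 12 was the lowest in 313. Corn fetus 4 was the highest in 1067 regions, hay fetus 15 in 1054 and hay fetus 12 in 982, while hay fetus 5 was the highest in 351. Fetuses of both diets stood at either end.

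The 38 wide regions in which every fetus had a p-value of 0 outnumbered the 9 compact ones, and 13 compact regions had a p-value of 0 in at least 1 fetus. By width, the median scaled score of compact regions was 3.09 up to 300 bp, 3.44 from 301 to 500 bp, 2.30 from 501 to 700 bp, 2.02 from 701 to 800 bp, 1.87 from 801 to 900 bp and 1.93 from 901 to 1000 bp.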
